A study of Homo sapiens with 6 samples.

Results

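Myosin phosphatase is described here together with its inhibitors, the kinase that opposes it and the myosin light chain on which both act, in a human lung cancer cell line depleted of GLMP. The 10 genes are PPP1R14A, PPP1R14B, PPP1R14C, PPP1R14D, PPP1R12A, PPP1R12B, PPP1R12C, PPP1CB, MYLK and MYL9, out of 60664 genes in the count table. They were chosen by gene symbol, as members of 1 pathway, with earlier results of the same comparison in view. PPP1R14C and MYL9 in particular had been selected on their fold change and adjusted p-value in that comparison. The changes of all 10 members between the groups are therefore given as a description, and no p-value is printed for any of them.

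The libraries were 3 of si-GLMP cells, labelled as a GLMP knockdown, and 3 of NC cells, labelled as controls. All were made from PC9OR, a single line labelled as lung cancer cells, whose derivation the labels do not give. The study asked about GLMP, a lysosomal membrane glycoprotein, in relation to EGFR inhibitors, autophagy and RhoA, and the phosphatase lies in the RhoA pathway. The labels do not say whether the 3 libraries of a group came from separate cultures, so their spread may be technical, and only 1 knockdown condition is labelled.

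Myosin II pulls on actin filaments when its regulatory light chain is phosphorylated. Myosin light chain kinase, activated by calcium, adds this phosphate, and myosin phosphatase removes it. The phosphatase is made of a catalytic subunit, PP1 beta (PPP1CB), and a targeting subunit of the PPP1R12 family that holds it on myosin. The small PPP1R14 proteins inhibit it once a threonine in their shared core is phosphorylated, for instance by protein kinase C. RhoA acts through the ROCK kinases, which phosphorylate the targeting subunit and the light chain itself. In epithelial and carcinoma cells this circuit sets cortical tension, adhesion and migration.

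The stretch that carries the inhibitory threonine is shown for the 4 PPP1R14 genes, because a reader can see from it how closely the members with reads and those without resemble each other. These are coding strands of GRCh38 in the GENCODE 29 annotation, read 5′ to 3′, with the threonine codon in capitals. It is codon 38 of PPP1R14A (chr19:38256202-38256237, minus strand), codon 57 of PPP1R14B (chr11:64246479-64246514, minus strand), codon 73 of PPP1R14C (chr6:150143400-150143435, plus strand) and codon 58 of PPP1R14D (chr15:40828444-40828479, minus strand). Each stretch lies within 1 exon.
PPP1R14A: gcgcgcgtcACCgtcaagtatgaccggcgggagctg
PPP1R14B: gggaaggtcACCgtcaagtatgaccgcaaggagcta
PPP1R14C: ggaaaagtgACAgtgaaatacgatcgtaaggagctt
PPP1R14D: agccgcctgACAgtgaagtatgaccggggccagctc
Over the alignable coding sequence PPP1R14B and PPP1R14C were 72.4% identical.

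The light chains are shown around the adjoining threonine and serine that the kinase phosphorylates, whose codons are in capitals. They are codons 19 and 20 of MYL9 (chr20:36544927-36544959) and of MYL12B (chr18:3272941-3272973), and codons 24 and 25 in the longest coding transcript of MYL12A (chr18:3253287-3253319), all on the plus strand and counted from the start codon.
MYL9: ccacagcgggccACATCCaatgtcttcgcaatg
MYL12A: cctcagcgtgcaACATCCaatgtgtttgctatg
MYL12B: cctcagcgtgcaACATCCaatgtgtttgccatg
MYL12A and MYL12B are the non-muscle paralogs of MYL9, which is the light chain best known from smooth muscle. MYL9 was 79.8% identical to MYL12A and 80.8% to MYL12B over the coding sequence, whereas MYL12A and MYL12B were 95.7% identical to each other, so that reads of this last pair are the harder to assign.

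Totals ran from 20313899 to 21041277 counts in the si-GLMP libraries and from 19896875 to 22372878 in the NC libraries. Levels are CPM, that is, counts scaled to library size and TMM factors, and 3 counts in a library, taken as the floor, equalled 0.133 to 0.151 CPM. Genes encoded by the mitochondrial genome took 5.19% to 5.51% of the counts in si-GLMP and 6.51% to 8.76% in NC, with NC replicate 2 the highest. GLMP itself had 4.01, 2.88 and 3.15 CPM in si-GLMP, against 15.5, 16.8 and 15.4 CPM in NC. Its log2 fold change was -2.25 ± 0.14 (SE; adjusted p = 1.16e-18 by the quasi-likelihood test of edgeR). The opposite-strand gene TMEM79 shares 17.5% of its exonic length.

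PPP1R14C, MYL9, MYLK and PPP1R12B were lower in the knockdown, where the fitted level was 0.379, 0.492, 0.702 and 0.793 times that of NC cells. The catalytic subunit PPP1CB, the abundant inhibitor PPP1R14B and the targeting subunits PPP1R12A and PPP1R12C did not pass the threshold, an edgeR adjusted p of 0.05. PPP1R14A and PPP1R14D had at most 1 read in any library and were below the filter on low counts. Thus 8 of 10 members were tested, and 4 of the 8 were called lower and 0 higher. DESeq2 gave the same 4 and 0, and at an unadjusted p under 0.05 the counts were 4 lower and 1 higher. Over all 15900 tested genes 11.3% were called lower, 12.0% higher and 23.3% in either direction. The CPM of the groups did not overlap for 4 of the 8 members, where the share of all tested genes was 36.5%. The median log2 fold change of the 8 was -0.24, beside 0.00 over all tested genes. Nothing is read from these counts, since the list was drawn up around genes that had changed.

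**Figure D1:**
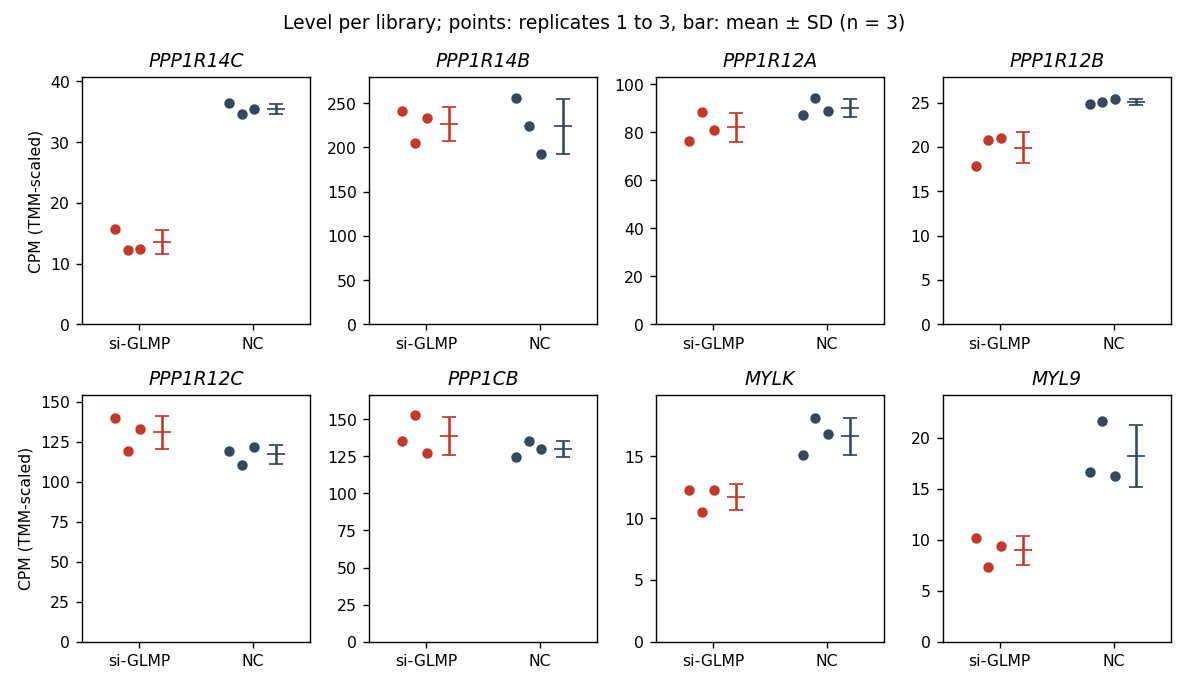
CPM of the 8 tested members in each library (vertical axes start at 0), with the 3 si-GLMP libraries left of the 3 NC libraries and the mean ± SD beside each group. PPP1R14C, PPP1R12B, MYLK and MYL9 show groups that do not overlap, and the other 4 genes show groups that do.

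PPP1R14C encodes KEPI, a membrane-bound inhibitor that acts on PP1 once protein kinase C has phosphorylated it. The gene lies on chromosome 6 from 150143076 to 150250357 on the plus strand. It had 322, 260 and 256 counts in si-GLMP replicates 1 to 3, against 725, 709 and 801 counts in NC replicates 1 to 3. In CPM these were 15.7, 12.3 and 12.4 in si-GLMP, against 36.4, 34.7 and 35.5 in NC. The 3 NC libraries lay within 1.05-fold of each other, and the highest si-GLMP library stayed far below the lowest NC library. Means were 13.5 ± 1.97 CPM in si-GLMP and 35.5 ± 0.855 CPM in NC (SD over 3 libraries each), and the log2 fold change was -1.40 ± 0.10 (SE). By that value it was number 31 of the 15900 tested genes, counted from the most negative. This place reflects the selection, since the gene had been picked on its fold change in this comparison. Its exons overlap those of no other gene in the annotation.

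PPP1R14B encodes PHI-1, the widely expressed relative of the same inhibitor, and was the most abundant member. It had 241.0, 205.2 and 233.4 CPM in si-GLMP, against 255.4, 223.8 and 192.9 CPM in NC. The groups overlapped, and NC replicates 1 and 3 held the highest and the lowest value of all 6 libraries. The log2 fold change was 0.02 with a 95% interval from -0.15 to 0.18. The value is uncertain in 1 respect: processed copies of the gene are nearly identical to it, and reads could have been split between them. PPP1R14BP3, 98.9% identical over 444 aligned bases, averaged 13.6 ± 1.04 CPM in si-GLMP and 12.3 ± 1.22 CPM in NC.

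PPP1R14A encodes CPI-17, the smooth-muscle inhibitor after which the family is known, and PPP1R14D encodes an inhibitor described in gut and brain. PPP1R14A had 1 read in si-GLMP replicate 1 and none in the other 5 libraries. PPP1R14D had 1 read in si-GLMP replicate 2 and 1 in NC replicate 2. Both stayed under the floor of 3 counts in every library, so no fold is given, and expression could not be detected at this depth. Of the 4 inhibitors, PPP1R14B and PPP1R14C thus supplied nearly all the reads.

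The make-up of the family shifted with the fall of PPP1R14C. Levels were divided by the length of the annotated exons of each gene, so that paralogs can be compared. On this per-length scale PPP1R14C made up 4.78%, 4.39% and 3.93% of the summed level of the 4 inhibitors in si-GLMP, against 9.88%, 10.6% and 12.4% in NC. PPP1R14B made up 95.2%, 95.6% and 96.1% in si-GLMP, against 90.1%, 89.3% and 87.6% in NC. The sum over the family was 143 ± 12.0 CPM per kb in si-GLMP and 152 ± 19.1 CPM per kb in NC (SD, 3 libraries each), a difference smaller than either spread. Of PPP1R14B and PPP1R14C, PPP1R14C was thus the minor one in both groups, and it had been selected on its change. Without division by length its mean share was 5.60% in si-GLMP and 13.8% in NC.

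Of the targeting subunits only PPP1R12B was called, and differences between the subunits were not tested. PPP1R12A encodes MYPT1, the subunit that ROCK phosphorylates. It had 76.4, 88.6 and 80.9 CPM in si-GLMP, against 87.3, 94.3 and 88.7 CPM in NC, and si-GLMP replicate 2 reached into the NC range. Its log2 fold change was -0.14 with a 95% interval from -0.28 to 0.01.

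PPP1R12B encodes MYPT2, the form best known from heart and brain. It had 17.9, 20.8 and 21.0 CPM in si-GLMP, against 24.8, 25.1 and 25.4 CPM in NC. All 3 si-GLMP values lay below the 3 NC values, which differed by no more than 1.03-fold. The log2 fold change was -0.33 ± 0.10 (SE). Without si-GLMP replicate 1, its lowest library, the log2 fold change was -0.26 and the call was lost. In the annotation 10.02% of its exonic length is shared with SYT2 on the opposite strand, and without a stated strand setting reads of the pair cannot be told apart. SYT2, chosen for this overlap after the values were seen, had 2 to 13 counts in si-GLMP and 15 to 24 in NC.

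PPP1R12C encodes MBS85, a widely expressed targeting subunit. It had 140.1, 119.5 and 133.2 CPM in si-GLMP, against 119.4, 110.6 and 121.9 CPM in NC. The groups overlapped, with si-GLMP replicate 2 inside the NC range, and the log2 fold change was 0.16 with a 95% interval from 0.02 to 0.30. That interval is not adjusted for the number of genes. Without si-GLMP replicate 2 PPP1R12C was called higher, at 0.22, and PPP1R12A lower, at -0.19.

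Per kb of exon, PPP1R12C made up most of the targeting subunits in every library, with 71.4%, 64.8% and 68.9% in si-GLMP, against 64.5%, 61.1% and 64.6% in NC. PPP1R12A followed with 25.2% to 31.1% in si-GLMP and 30.4% to 33.8% in NC. PPP1R12B was the smallest part, at 3.34% to 4.14% in si-GLMP and 4.92% to 5.09% in NC. The summed level was 24.8 ± 0.785 CPM per kb in si-GLMP and 23.9 ± 0.507 CPM per kb in NC.

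The catalytic subunit of the complex, PPP1CB, had 135.1, 152.6 and 127.4 CPM in si-GLMP, against 124.5, 135.3 and 130.0 CPM in NC. The ranges overlapped and the log2 fold change was 0.09, with a 95% interval from -0.05 to 0.23. The same-strand gene SPDYA covers 7.99% of its exonic length. Among the PP1 catalytic genes PPP1CB was the least abundant per kb, with a mean share of 17.6% in si-GLMP and 16.4% in NC. PPP1CA, the alpha isoform, held the largest share per kb, with 61.3% in si-GLMP and 59.8% in NC. Undivided by length, its mean share was 40.3% in si-GLMP and 38.5% in NC, against 35.2% and 38.9% for PPP1CC. PPP1CC, the gamma isoform, was called lower, with -0.18 ± 0.07 on the log2 scale (SE; edgeR adjusted p = 0.0419), and this call was lost in 5 of 6 fits that each left out 1 library.

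MYLK encodes the kinase that works against the phosphatase. Its gene spans 123610049 to 123884331 on the minus strand of chromosome 3. It had 12.3, 10.5 and 12.3 CPM in si-GLMP, against 15.1, 18.1 and 16.8 CPM in NC. All si-GLMP libraries lay below all NC libraries, and the log2 fold change was -0.51 ± 0.11 (SE). Counts per gene cannot separate the long kinase transcripts from telokin, a short product that starts near the 3′ end of the gene. The MYLK promoter in the RefSeq table is such an internal start, at 123620548. The antisense gene MYLK-AS1 shares 0.60% of the exonic length of MYLK and had 14 to 34 counts per library.

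MYL9, the light chain, lies on chromosome 20 from 36541484 to 36551447 on the plus strand. It had 208, 156 and 193 counts in si-GLMP, against 331, 444 and 368 counts in NC. As CPM these were 10.2, 7.36 and 9.35 in si-GLMP, against 16.6, 21.7 and 16.3 in NC. NC replicate 2 stood above the other 2 NC libraries, and the highest si-GLMP library was still below the lowest NC library. The mean was 8.96 ± 1.45 CPM in si-GLMP and 18.2 ± 3.03 CPM in NC (SD), and the log2 fold change -1.02 ± 0.13 (SE). Without NC replicate 2 the log2 fold change was -0.88, the smallest of the 6 fits that each left out 1 library.

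MYL9 was a small part of the regulatory light chains. Per kb of exon it made up 2.82%, 2.12% and 2.85% of the sum of MYL9, MYL12A and MYL12B in si-GLMP, against 4.56%, 5.99% and 4.53% in NC. MYL12B was the main form, at 75.1% to 76.5% in si-GLMP and 71.2% to 74.5% in NC. Neither MYL12A nor MYL12B passed the threshold, with log2 fold changes of -0.10 ± 0.07 (SE; edgeR adjusted p = 0.305) and -0.01 ± 0.07 (SE; edgeR adjusted p = 0.926). The 95% interval ran from -0.24 to 0.04 for MYL12A and from -0.14 to 0.12 for MYL12B. MYL12A had 83.4 to 87.0 CPM in si-GLMP and 87.8 to 95.3 CPM in NC. These groups did not overlap, as was so for 36.5% of all tested genes. The summed light-chain level was 122 ± 5.67 CPM per kb in si-GLMP and 128 ± 0.724 CPM per kb in NC. Here and among the inhibitors the member that fell was a minor one, and the main paralogs were not called. No pattern is read from this, since MYL9 and PPP1R14C had been selected on their change. PPP1CB, the least abundant PP1 catalytic gene per kb, was not called.

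**Figure D2:**
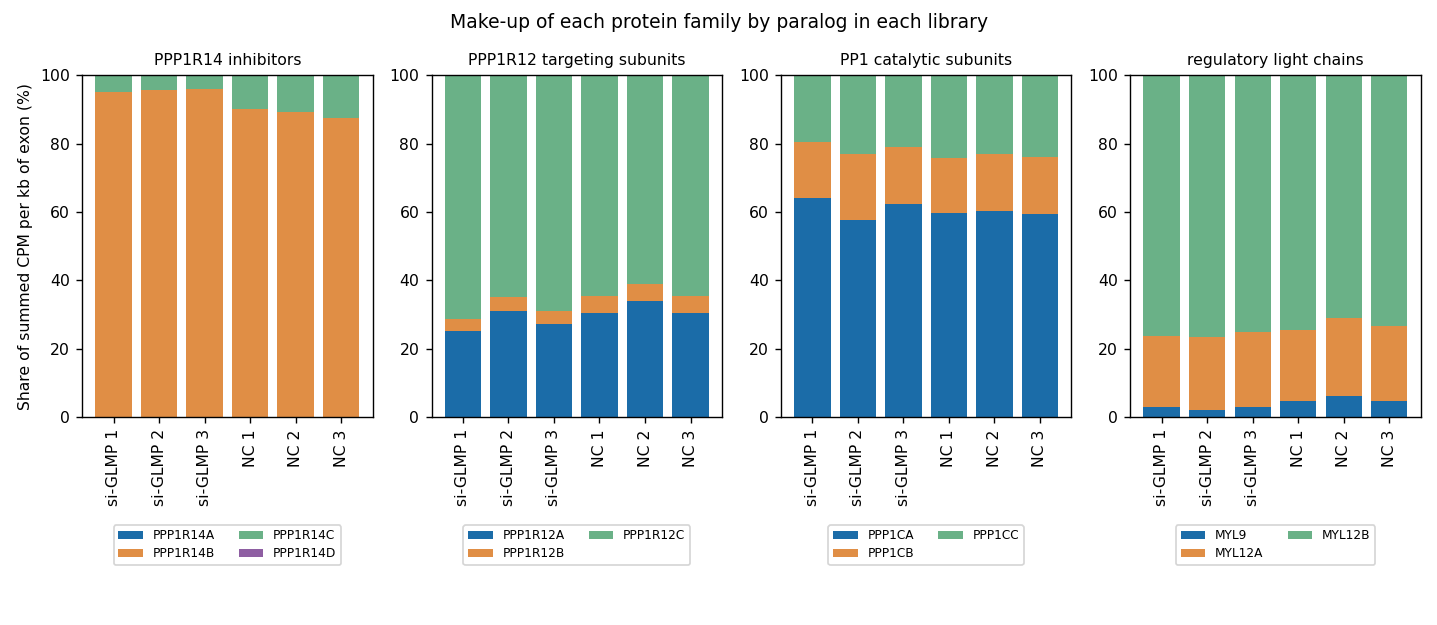
Share of each paralog in the summed CPM per kb of exon of its family (vertical axes, 0 to 100%), one bar per library, si-GLMP left of NC. PPP1R14C and MYL9 are thin parts of their families in all 6 libraries and are thinner in the 3 si-GLMP bars than in the 3 NC bars. On this per-length scale PPP1R14B, PPP1R12C, PPP1CA and MYL12B are the main forms throughout.

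Ordered by level per kb, PPP1R14B led the members with 137 ± 11.4 CPM per kb in si-GLMP and 135 ± 18.9 in NC. PPP1CB followed with 24.0 ± 2.24 in si-GLMP and 22.6 ± 0.940 in NC. PPP1R12C had 16.9 ± 1.36 in si-GLMP and 15.2 ± 0.769 in NC, and PPP1R14C had 6.26 ± 0.914 in si-GLMP and 16.5 ± 0.397 in NC (SD, 3 libraries each). On this exon-union scale PPP1R14C ranked below PPP1R12C in si-GLMP cells and above it in NC cells, by more than the SD of either gene. This switch rests on the length used. PPP1R12C has 7726 bp of exons but a longest coding transcript of 2924 bp, whereas PPP1R14C has 2152 bp for both. Per kb of that transcript PPP1R12C would lie above PPP1R14C in both groups. The order of the other members was not examined with another length. In plain CPM PPP1R14C lay below PPP1R12C in both groups, with means of 13.5 and 130.9 in si-GLMP and 35.5 and 117.3 in NC. Per kb of exon, the nearest neighbour of PPP1R14C in si-GLMP cells was PPP1R12A with 6.87 ± 0.514, a difference within their spread. MYL9, PPP1R12B and MYLK were the lowest of the tested members, with 3.18, 0.945 and 0.527 CPM per kb in si-GLMP and 6.46, 1.19 and 0.750 in NC.

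**Figure D3:**
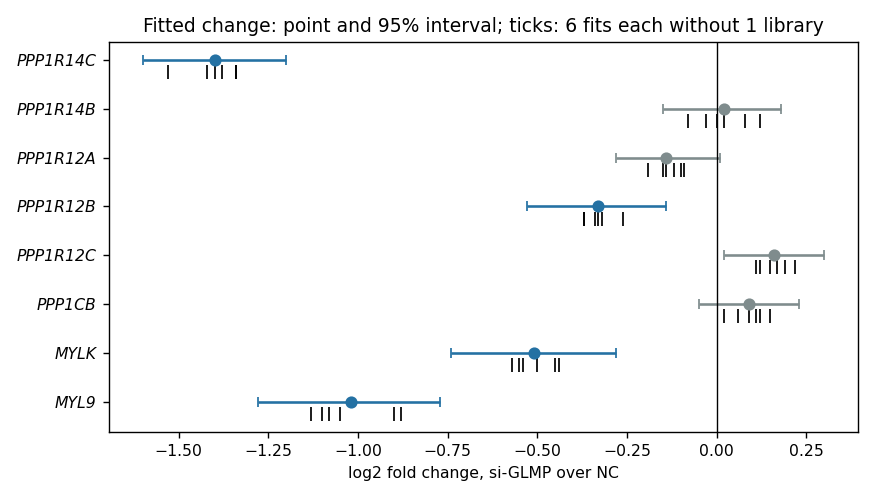
Log2 fold change of si-GLMP over NC for the 8 tested members (horizontal axis), with the fitted value and its 95% interval; blue marks members called lower, and ticks below each point give the 6 fits without 1 library each. PPP1R14C lies near -1.40 and MYL9 near -1.02, and the intervals of PPP1R14B, PPP1R12A and PPP1CB include 0.

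The direction of the 4 lower members was the same in each of the 11 alternative fits. Their groups did not overlap, so leaving out 1 library could hardly turn the sign, and nothing is read from this. The log2 fold change ranged from -1.53 to -1.34 for PPP1R14C, from -1.13 to -0.88 for MYL9, from -0.57 to -0.44 for MYLK and from -0.37 to -0.26 for PPP1R12B. It ranged from -0.08 to 0.12 for PPP1R14B and from -0.19 to -0.09 for PPP1R12A. For PPP1R12C it ran from 0.11 to 0.22, and for PPP1CB from 0.02 to 0.15.

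Since MYL9 and MYLK are known targets of SRF, the factor that reads the state of actin, and TEAD factors act beside it, the promoters of the members were searched for the CArG box by name and for the hexamer CATTCC, on both strands. The RefSeq table (GRCh38.p14, 250 bases before to 50 after a start) held 15 promoters for 9 of the 10 members, and MYL9 was not among them. A CArG box was found in 1 of them, 94 bases before the internal start of MYLK. It is shown because it lies beside one of the members that fell, with the box in capitals, on the minus strand of chr3:123620618-123620657.
MYLK: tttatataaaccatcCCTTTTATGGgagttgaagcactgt
Such a box was in 1.29% of all 35116 promoters in the table. The hexamer was found in 5 of the 15 promoters, at 4 of the 9 genes (MYLK, PPP1R12A, PPP1R12C and PPP1R14D), beside 14.0% of all promoters and 16.7% of all genes in the table. The PPP1R14C and PPP1R12B promoters held neither. A match describes the letters alone and says nothing of binding.

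Of the wider pathway, the genes that act on the phosphatase and the light chain were set beside the members. They came from lists put together by role, but with earlier results of these data known. Apart from a few genes fixed by role, those named have the smallest adjusted p-values of their list. The p-values are adjusted over all tested genes and do not allow for this choice. Among the 25 tested kinases of the light chain, the targeting subunits and the inhibitors, 8 fell and 3 rose, while 14 did not pass. The share called in either direction was 44.0%, beside 23.3% of all tested genes, and the median log2 fold change was -0.12. CDC42BPB, which encodes MRCK beta, a kinase of the targeting subunit, fell to 129.7 ± 11.4 CPM in si-GLMP, against 232.0 ± 4.20 CPM in NC (log2 fold change -0.84 ± 0.07, SE; edgeR adjusted p = 8.17e-15). STK17B, a relative of the death-associated kinases, had -0.81 (edgeR adjusted p = 5.65e-08) and the Rac and Cdc42 effector PAK2 -0.32 (edgeR adjusted p = 0.00023). The MRCK gamma gene CDC42BPG rose by 0.41 (edgeR adjusted p = 3.02e-06) and STK17A by 0.28 (edgeR adjusted p = 0.00363), though the STK17A call was lost without si-GLMP replicate 2. ROCK1 averaged 56.2 ± 8.09 CPM in si-GLMP and 58.0 ± 1.13 CPM in NC and was not called (edgeR adjusted p = 0.746). ROCK2 had -0.21 ± 0.07 (SE; edgeR adjusted p = 0.0266), a call that 4 of the 6 fits without 1 library lost. The number of kinases called fell to 7 without NC replicate 1 or si-GLMP replicate 1.

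Of 8 tested genes for the other chains of myosin II, 1 fell, 1 rose and 6 did not pass. MYH9, the main heavy chain here, had 3197 ± 109 CPM in si-GLMP and 3307.3 ± 179 CPM in NC (edgeR adjusted p = 0.639). The heavy chain gene MYH14 rose by 0.54 ± 0.07 (SE; edgeR adjusted p = 9.01e-09). MYH10 had -0.21 (edgeR adjusted p = 0.0206), and its call was lost without NC replicate 1, NC replicate 2 or si-GLMP replicate 3.

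Among 23 other tested subunits and inhibitors of PP1, 21.7% were called, near the 23.3% of all tested genes. They gave 1 lower and 4 higher, with a median log2 fold change of 0.03. The higher ones were PPP1R15A and PPP1R15B, which direct PP1 to the translation factor eIF2 alpha, each at 0.52 (edgeR adjusted p = 9.41e-09 and 1.37e-08), PPP1R37 at 0.36 (edgeR adjusted p = 0.000596) and the actin-associated PPP1R18 at 0.26 (edgeR adjusted p = 0.00314). Of 9 tested genes for other substrates of myosin phosphatase, 1 was lower, NF2, which encodes merlin, at -0.40 (edgeR adjusted p = 6.18e-06), and 0 were higher, also by DESeq2 and at an unadjusted p under 0.05. Without si-GLMP replicate 2 a further substrate was called. With all libraries 11.1% of these substrates were called, beside 23.3% of all tested genes.

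**Figure D4:**
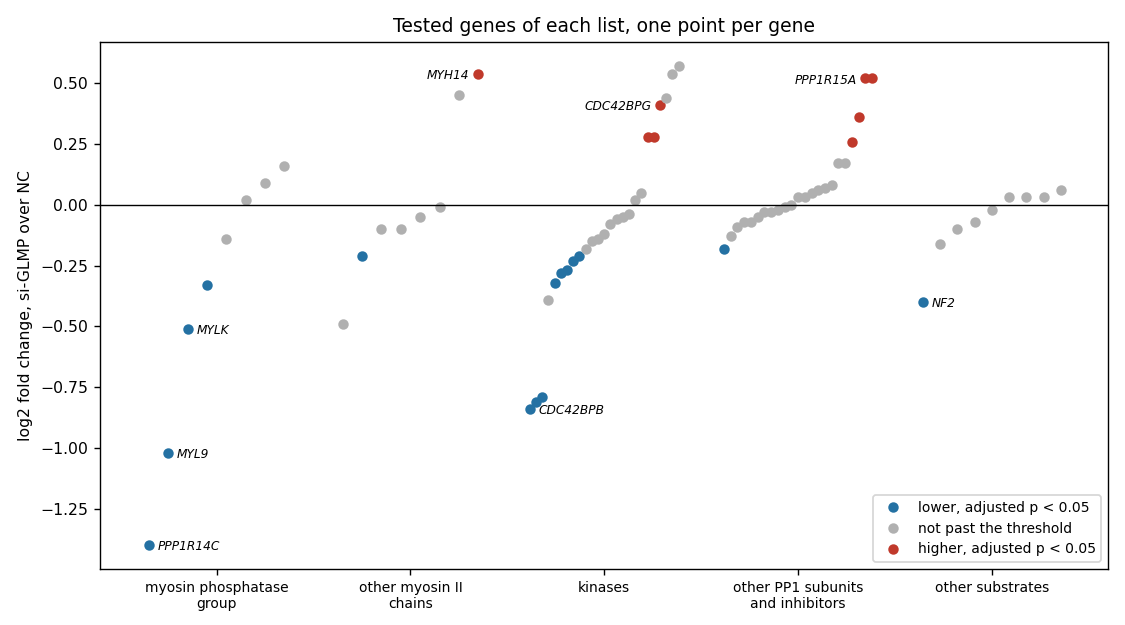
Log2 fold change of si-GLMP over NC (vertical axis) for each tested gene of the myosin phosphatase group and of the 4 lists beside it; blue points were lower and red points higher at an edgeR adjusted p under 0.05, and grey points did not pass. PPP1R14C at -1.40, MYL9 at -1.02 and CDC42BPB at -0.84 are the lowest points.

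PPP1R14A, MYLK and MYL9 are also markers of smooth muscle, so the genes of that cell type were examined. MYOCD had 0 counts in each library, and CNN1, DES and CASQ2 were likewise under the filter on low counts. Of the 10 markers 6 were tested, 2 were lower and 0 higher. TAGLN had 5.05 ± 1.03 CPM in si-GLMP and 10.8 ± 1.62 CPM in NC (edgeR adjusted p = 4.26e-08). ACTA2 had 0.742 ± 0.354 CPM in si-GLMP and 1.55 ± 0.428 CPM in NC (edgeR adjusted p = 0.0165). Its counts were low, from 9 to 23 in si-GLMP and from 22 to 40 in NC, and the groups overlapped. The summed level of the 10 was 41.2 to 46.3 CPM in si-GLMP and 50.7 to 53.6 CPM in NC, most of it from SMTN. Of 8 fibroblast markers 3 were tested and 1, COL1A1, was higher (edgeR adjusted p = 1.59e-06), with sums of 10.8 to 13.0 CPM in si-GLMP and 6.57 to 8.39 CPM in NC; COL3A1 had 0 counts throughout. The part of either list in the results was not tested, and in bulk RNA fewer cells of a type and less RNA per cell cannot be told apart. The epithelial markers, among them EPCAM and KRT8, summed to 8928.7 to 9988.9 CPM in si-GLMP and 9547.8 to 9850.5 CPM in NC, and 1 of the 8 was lower and 4 were higher. Of the 8 lung epithelial markers 3 were tested, and 1 was lower and 0 were higher. The lower one was FOXA2, at 22.7 ± 2.85 CPM in si-GLMP and 27.9 ± 0.648 CPM in NC (edgeR adjusted p = 0.0182), which made up most of the list's sum of 21.0 to 26.7 CPM in si-GLMP and 28.8 to 29.2 CPM in NC. The lineage factor NKX2-1 and the surfactant genes SFTPA1, SFTPA2 and SFTPB had 0 to 6 counts in every library and were below the filter. Of the tested markers, 33.3% were called for smooth muscle, 33.3% for fibroblast, 62.5% for epithelial and 33.3% for lung epithelial cells. Beside these stands the 23.3% called of all tested genes.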

How the data were processed

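RNA sequencing of 3 si-GLMP and 3 NC libraries of PC9OR cells was analysed. RNA was extracted with Trizol and made into Illumina mRNA libraries, per the labels' protocols. The authors deposited whole-number read counts per gene, not normalized; the submitters' processing notes name the aligner HISAT2 and the build GRCh38. For the counting tool, its annotation and its strand setting the entry is: not given in the sources used here. All 6 count columns were matched by title. Counts were filtered by filterByExpr (minimum count 10), scaled by TMM and tested with edgeR 4.0.16 (robust quasi-likelihood F test, group as the only term) in R 4.3.3, with Benjamini-Hochberg adjustment over 15900 genes and a threshold of 0.05; the procedure was tested on simulated data. Standard errors were taken as the absolute log2 fold change over the square root of F. Exon lengths, overlaps and coding sequences came from GENCODE 29. Its genes differ in part from those of the count table, so lengths and overlaps need not be those used for counting. The biological coefficient of variation was 6.91%. Floors cover counting error only.

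The members and gene lists were chosen with earlier results of these data known. Named genes were the members, GLMP, a few genes fixed by role and up to 5 called genes per list with the smallest adjusted p. Some planned lists and genes are not reported here. SFTA3, a listed lung marker, is not analysed here. Alternatives were RLE and upper-quartile scaling, no count filter, each library left out, the replicate number as a block and DESeq2 1.42.0; another gene length for family shares was added after seeing the data.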

Additional observations from a re-analysis of the deposited data

How the results depend on the processing

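GLMP kept its direction and its call in all 11 alternatives, with log2 fold changes from -2.40 to -2.15. The number of tested genes called was 3712, and 3672, 3716, 3254 and 3287 under RLE scaling, upper-quartile scaling, no count filter and DESeq2, and 2804 to 3448 with 1 library left out. Deviations of same-numbered libraries were nearly uncorrelated (0.0388, 0.0263 and 0.00128), which alone does not settle whether the numbers pair them. With the replicate number as a block 3972 genes were called, against 3712 without it, and the block changed the call of no member. Under the 6 fits without 1 library, 3 to 5 members were called lower and 0 to 1 higher, 1 to 3 other myosin II chains, 7 to 11 kinases, and 1 to 2 other substrates. PPP1CC also missed the threshold with upper-quartile scaling (edgeR adjusted p = 0.0549) and with no count filter (0.105), and ROCK2 with no count filter (0.052). With the longest coding transcript as gene length, chosen after seeing the data, the differences in family share (si-GLMP minus NC, percentage points) were 4.18 for PPP1R14B, -4.18 for PPP1R14C, -0.69 for PPP1R12B and -1.39 for MYL9, against 6.60, -6.61, -1.16 and -2.43 with the union of exons; the cause is the length alone, and no direction changed. Depth limits PPP1R14A and PPP1R14D, which stayed under the floor.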
